A study of Mus musculus with 6 samples.

Results

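The genes described here build the machinery that docks, primes and fuses synaptic vesicles, and they were chosen by name. Gene symbols of the synaptotagmin, complexin, syntaxin, syntaxin-binding, VAMP, SNAP, synapsin, RIM, Rab3, SV2 and Unc13 families gave 77 members of the 50383 gene IDs in each table, all of them protein coding. There were 31 genes of neuronal release, 31 paralogs of general membrane trafficking, 14 further synaptotagmins, and Snap91, a clathrin assembly protein of vesicle recycling that the name rule also takes in. A mean of at least 1 FPKM, fragments scaled by the length of a transcript and the size of the library, was reached by 69 members, which were tested. These were 30 neuronal release genes, 26 trafficking genes, 12 further synaptotagmins and Snap91. The other 8, Cplx4, Syt8, Syt15, Stx11, Stx19, Sytl1, Sytl3 and Sytl4, lay below that level, and Vamp7 was not analysed here.

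RNA came from the lateral amygdala, a region needed for fear memory, of male 129xC57BL/6 hybrid mice aged 2-3 months. The groups of 2 libraries each were Baf53b siRNA, scrambled siRNA and control. The siRNA of the first is directed at Actl6b, the gene of the neuronal BAF complex subunit BAF53b, and was given 1 day after training. The labels give no allele or Cre line, give no treatment for control mice, and mention tissue from 4 mice without saying whether a library is a pool. Each p-value thus reflects only how far these libraries spread, which may be technical.

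Transmitter release rests on a complex of SNARE proteins. VAMP on the vesicle zips together with syntaxin and SNAP on the target membrane, guided by a Munc18 protein (gene prefix Stxbp). In neurons, Munc13 and RIM proteins prime the vesicle at the active zone, complexin clamps the assembled complex, and calcium binding to synaptotagmin triggers fusion. Paralogs of the same families serve fusion in endosomes, the Golgi apparatus, autophagosomes and secretory cells, and are found in most tissues.

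Estimated from the deposited confidence intervals, between 6.42 M and 10.7 M fragments lay behind the genes of a library. Among members reaching 1 FPKM the median was 362 to 700 fragments, depending on the library. Such estimates follow the width of the interval within a library, cover no spread between libraries and are not read counts. For Snap25, the highest member, they ran from 2722 to 3190, and for Cplx2, at 119 to 141 FPKM, from 8844 to 17621. Actl6b stood at 42.8 and 39.6 FPKM in libraries labelled Baf53b siRNA, 43.8 and 43.9 FPKM with scrambled siRNA and 42.9 and 44.1 FPKM in control. Its difference against scrambled siRNA on the log2(FPKM + 1) scale was -0.09 (SE 0.12, limma adjusted p = 1), so a fall of the target was not detectable and directions below refer to the libraries as labelled. The tissue expressed the excitatory markers Slc17a7 at 288 to 410 FPKM and Tbr1 at 17.0 to 19.5 FPKM over the 6 libraries. A list of 12 microglia and macrophage markers summed to 1085 and 897 FPKM in libraries labelled Baf53b siRNA, 598 and 596 FPKM with scrambled siRNA and 345 and 342 FPKM in control.

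Members ranged widely in level. Since FPKM is scaled by length, levels can be set side by side between genes. Snap25 (mm10 chromosome 2, 136713453 to 136782428, plus strand), the plasma membrane SNARE of neurons, was the highest of the 77 members. It stood at 831 and 735 FPKM in libraries labelled Baf53b siRNA, 805 and 841 FPKM with scrambled siRNA and 798 and 805 FPKM in control. The groups overlapped, and the log2 difference against scrambled siRNA came to -0.07 (SE 0.17, 95% interval -0.47 to 0.32, limma adjusted p = 1). Vamp2 (chromosome 11, 69088490 to 69092384, plus strand), the vesicle SNARE, stood at 354 and 339 FPKM in libraries labelled Baf53b siRNA, 365 and 373 FPKM with scrambled siRNA and 399 and 367 FPKM in control. Both of those labelled Baf53b siRNA lay below the other 4, by a log2 difference of -0.09 against scrambled siRNA and -0.14 against control (SE 0.15 in both, limma adjusted p = 1). Syt1 (chromosome 10, 108497650 to 109010982, minus strand), the fast calcium sensor, had 382 and 349.9 FPKM in libraries labelled Baf53b siRNA, 394 and 392 FPKM with scrambled siRNA and 376 and 383 FPKM in control. It overlapped with control and lay below scrambled siRNA, where the log2 difference was -0.10 (SE 0.15, limma adjusted p = 1). The interval of Syt1 corresponded to an estimated 3109 to 3219 fragments in a library, which is not a read count.

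**Figure D1:**
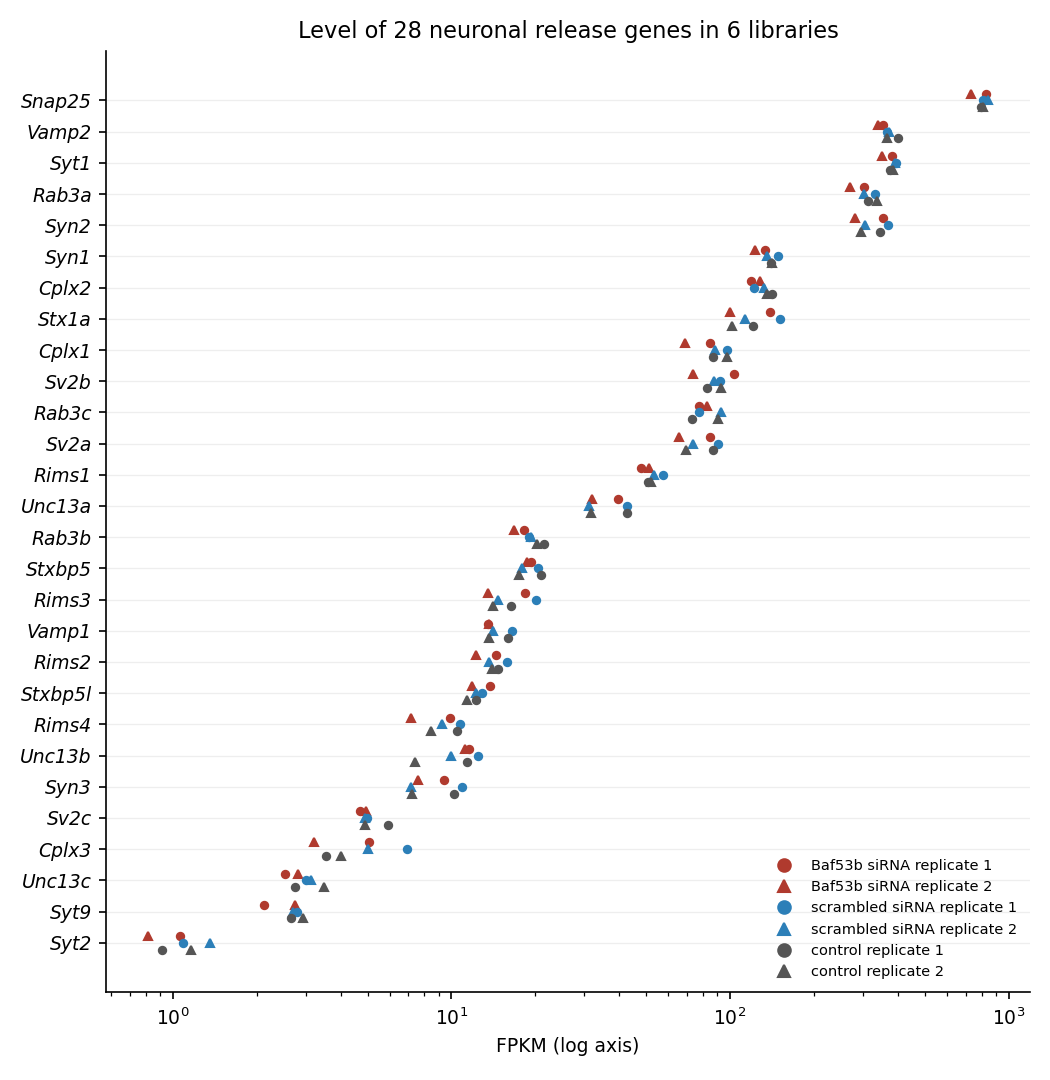
FPKM on a log axis of 28 tested neuronal release genes, ordered by mean level in control, in each of the 6 libraries (colour marks the group, circle replicate 1, triangle replicate 2). Snap25 is highest and Syt2 lowest, and for most genes the 6 points sit close together beside the span of the axis.

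The plot of levels by gene shows that differences between genes were far wider than those between groups. Stx1a, the plasma membrane syntaxin that pairs with SNAP-25, stood at 139 and 99.8 FPKM in libraries labelled Baf53b siRNA, 151 and 113 FPKM with scrambled siRNA and 121 and 102 FPKM in control. In Stx1a the 2 libraries of each group differed by more than the mean of the libraries labelled Baf53b siRNA did from either other mean. Vamp1, the vesicle SNARE of fast-firing and motor circuits, stood at 13.6 and 13.7 FPKM in libraries labelled Baf53b siRNA, 16.5 and 14.1 FPKM with scrambled siRNA and 16.0 and 13.6 FPKM in control. Vamp2 made up 77.2% to 81.0% of the summed FPKM of the VAMP genes, and Snap25 78.1% to 82.9% of the SNAP genes without Snap91, over the 6 libraries.

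Complexins bind the assembled SNARE complex. Cplx1 (chromosome 5, 108518554 to 108550024, minus strand) stood at 85.0 and 68.6 FPKM in libraries labelled Baf53b siRNA, 97.4 and 88.6 FPKM with scrambled siRNA and 86.7 and 97.4 FPKM in control. Both of those labelled Baf53b siRNA lay below the other 4, and the group means were 76.8 ± 11.6 FPKM in libraries labelled Baf53b siRNA, 93.0 ± 6.25 FPKM with scrambled siRNA and 92.1 ± 7.61 FPKM in control (SD, n = 2 each). The log2 difference was -0.28 against scrambled siRNA (SE 0.16, 95% interval -0.65 to 0.10) and -0.26 against control (SE 0.16, 95% interval -0.64 to 0.11), with a limma adjusted p = 1 in both. Cplx2, the main forebrain complexin at 53.8% to 64.1% of the family, stood at 119 and 128 FPKM in libraries labelled Baf53b siRNA, 122 and 132 FPKM with scrambled siRNA and 141 and 135 FPKM in control. It overlapped with scrambled siRNA and lay below control by -0.16 on the log2 scale (SE 0.13, limma adjusted p = 1). Cplx3, best known from retinal ribbon synapses and the cortical subplate, stood at 5.07 and 3.20 FPKM in libraries labelled Baf53b siRNA, 6.93 and 5.02 FPKM with scrambled siRNA and 3.56 and 4.02 FPKM in control. Its log2 difference was -0.45 against scrambled siRNA (SE 0.23, 95% interval -0.99 to 0.09, limma adjusted p = 1) and 0.08 against control. Only an estimated 29 to 62 fragments in a library lay behind Cplx3. Cplx4 had at most 0.0697 FPKM.

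Of the fast calcium sensors beside Syt1, Syt9 stood at 2.12 and 2.76 FPKM in libraries labelled Baf53b siRNA, 2.79 and 2.71 FPKM with scrambled siRNA and 2.66 and 2.94 FPKM in control. Syt2, the sensor of hindbrain and parvalbumin synapses, was close to the level filter at 1.06 and 0.818 FPKM in libraries labelled Baf53b siRNA, 1.09 and 1.36 FPKM with scrambled siRNA and 0.915 and 1.16 FPKM in control. An estimated 5 to 14 fragments lay behind each Syt2 value, and its log2 difference against scrambled siRNA was -0.20 (SE 0.18, limma adjusted p = 1). Syt1 made up 37.5% to 40.0% of the summed FPKM of the 17 synaptotagmins.

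The tomosyns compete with VAMP for syntaxin and so limit priming. Stxbp5 stood at 19.3 and 18.7 FPKM in libraries labelled Baf53b siRNA, 20.4 and 18.0 FPKM with scrambled siRNA and 21.0 and 17.5 FPKM in control. Stxbp5l stood at 13.7 and 11.9 FPKM in libraries labelled Baf53b siRNA, 12.8 and 12.3 FPKM with scrambled siRNA and 12.3 and 11.4 FPKM in control. In both tomosyn genes the groups overlapped in each comparison.

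Priming at the active zone needs Munc13 proteins, which open syntaxin. Unc13a, the main brain isoform at 65.6% to 73.3% of the family, stood at 39.7 and 31.8 FPKM in libraries labelled Baf53b siRNA, 42.8 and 31.2 FPKM with scrambled siRNA and 42.8 and 31.7 FPKM in control. Unc13b stood at 11.6 and 11.2 FPKM in libraries labelled Baf53b siRNA, 12.4 and 9.99 FPKM with scrambled siRNA and 11.4 and 7.41 FPKM in control. Unc13a and Unc13b overlapped in each comparison, with replicate 1 above replicate 2 in the 3 groups. That order was found in 13 of the 30 tested neuronal release genes and in 37.1% of all genes. Unc13c, known from cerebellar granule cells, stood at 2.54 and 2.81 FPKM in libraries labelled Baf53b siRNA, 3.01 and 3.15 FPKM with scrambled siRNA and 2.75 and 3.48 FPKM in control.

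RIM proteins tether vesicles and calcium channels. Rims1 stood at 47.7 and 51.3 FPKM in libraries labelled Baf53b siRNA, 57.4 and 53.1 FPKM with scrambled siRNA and 50.9 and 52.2 FPKM in control. Its libraries labelled Baf53b siRNA lay below those of scrambled siRNA, by -0.15 on the log2 scale (SE 0.13, limma adjusted p = 1), and overlapped with control. Rims2 stood at 14.5 and 12.3 FPKM in libraries labelled Baf53b siRNA, 15.8 and 13.7 FPKM with scrambled siRNA and 14.7 and 14.0 FPKM in control. The short forms Rims3 and Rims4 lack most of the domains of the long ones. Rims3 stood at 18.4 and 13.6 FPKM in libraries labelled Baf53b siRNA, 20.1 and 14.7 FPKM with scrambled siRNA and 16.3 and 14.1 FPKM in control. Rims4 stood at 9.87 and 7.18 FPKM in libraries labelled Baf53b siRNA, 10.7 and 9.28 FPKM with scrambled siRNA and 10.4 and 8.45 FPKM in control, with a log2 difference of -0.22 against scrambled siRNA (SE 0.19, limma adjusted p = 1).

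Rab3 proteins are the vesicle GTPases that bind RIM. Rab3a, at 72.4% to 76.8% of the family, stood at 302 and 269 FPKM in libraries labelled Baf53b siRNA, 331 and 301 FPKM with scrambled siRNA and 313 and 337 FPKM in control. It lay below control without overlap, by -0.19 on the log2 scale (SE 0.15, limma adjusted p = 1). Rab3b (chromosome 4, 108879063 to 108943324, plus strand), known for its part in long-term depression at inhibitory terminals, stood at 18.1 and 16.8 FPKM in libraries labelled Baf53b siRNA, 19.0 and 19.3 FPKM with scrambled siRNA and 21.6 and 20.2 FPKM in control. The 3 groups of Rab3b did not overlap, and the log2 difference was -0.25 against control (SE 0.13, 95% interval -0.55 to 0.06) and -0.13 against scrambled siRNA (SE 0.13), with a limma adjusted p = 1 in both. Rab3c stood at 77.5 and 82.7 FPKM in libraries labelled Baf53b siRNA, 77.6 and 92.4 FPKM with scrambled siRNA and 73.1 and 90.4 FPKM in control, and its groups overlapped.

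Synapsins hold vesicles in the reserve pool. Syn1 (chromosome X, 20860511 to 20921004, minus strand) stood at 133 and 123 FPKM in libraries labelled Baf53b siRNA, 148 and 136 FPKM with scrambled siRNA and 139.7 and 141 FPKM in control. Both of those labelled Baf53b siRNA lay below the other 4, by a log2 difference of -0.15 against scrambled siRNA and -0.13 against control (SE 0.13 in both, limma adjusted p = 1). Syn1 overlaps Araf on the opposite strand, and the strand setting of the counting is not given in the sources used here, so the split of reads between them is uncertain. The same doubt holds for Syt2, which overlaps Ppp1r12b (mean 18.0 FPKM), and for Syn2, Syn3, Rab3a and Unc13a. It also holds for some trafficking genes, such as Stx4a. Syn2, the most abundant synapsin, stood at 354 and 281 FPKM in libraries labelled Baf53b siRNA, 367 and 305 FPKM with scrambled siRNA and 345 and 296 FPKM in control. Syn3 stood at 9.39 and 7.58 FPKM in libraries labelled Baf53b siRNA, 10.9 and 7.17 FPKM with scrambled siRNA and 10.2 and 7.25 FPKM in control. Syn2 and Syn3 overlapped in each comparison.

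SV2 proteins are vesicle membrane glycoproteins, and SV2A is the binding site of the antiepileptic levetiracetam. Sv2a stood at 85.0 and 65.8 FPKM in libraries labelled Baf53b siRNA, 90.8 and 73.7 FPKM with scrambled siRNA and 86.6 and 69.4 FPKM in control. Sv2b stood at 103 and 73.5 FPKM in libraries labelled Baf53b siRNA, 92.2 and 87.6 FPKM with scrambled siRNA and 83.0 and 93.0 FPKM in control. Sv2c, the isoform of the basal ganglia, stood at 4.69 and 4.93 FPKM in libraries labelled Baf53b siRNA, 4.96 and 4.91 FPKM with scrambled siRNA and 5.91 and 4.91 FPKM in control. Sv2a and Sv2b together made up nearly all of the family, and the groups of the 3 genes overlapped.

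The study's main comparison sets the libraries labelled Baf53b siRNA beside those of scrambled siRNA. None of the 69 tested members passed: 0 had a limma adjusted p under 0.05, where 0.123% of all 14664 genes did, and 0 had an unadjusted p under 0.05, where 2.67% of all genes had one on the higher and 0.361% on the lower side. Neuronal release genes lay mostly on the lower side, 28 of 30 by the sign of the difference, where 49% of all genes did. Their median log2 difference was -0.13 (range -0.45 to 0.03), against a median of 0.0026 over all genes, and the SE of a single neuronal release gene had a median of 0.16. In 9 of the 30 (30%), both of those labelled Baf53b siRNA lay below both of scrambled siRNA, where 9% of all genes did: Cplx1, Rab3b, Rims1, Syn1, Syt1, Syt2, Unc13c, Vamp1 and Vamp2. None of the 30 had both above, where 13.1% of all genes did. By role, the median difference was -0.28 for the tested complexins, -0.13 for the fast sensors, the neuronal SNAREs and the priming and active zone genes, and -0.07 for the vesicle proteins. The tomosyns, which bind syntaxin and hold back SNARE assembly, stood near 0, with differences of -0.01 for Stxbp5 and 0.02 for Stxbp5l.

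Replicate 2 of the libraries labelled Baf53b siRNA was the lowest library for most neuronal release genes. It held the lowest value of 18 of the 30 genes and the highest of none, while 18.7% of all genes had their lowest value there. Without it, 18 of 30 lay lower against scrambled siRNA with a median of -0.03, when the median of all genes was 0.04 and 39.7% of them lay lower. Without replicate 1 of that group, 27 lay lower with a median of -0.20, when the median of all genes was -0.03. Without scrambled siRNA replicate 1, 20 of 30 lay lower with a median of -0.07, when the median of all genes was 0.07 and 33.9% of them lay lower. Without scrambled siRNA replicate 2, 28 lay lower with a median of -0.21, when the median of all genes was -0.06 and 61.0% of them lay lower. Scrambled siRNA replicate 1 held the highest value of 15 of the 30 genes, and 30% of all genes had their highest value there. Rescaled over nuclear genes, by median ratios or by quantiles, 28 of 30 stayed on the lower side, with medians of -0.14, -0.13 and -0.11. The medians of all genes were then -0.01, 0.0054 and -0.02, with 54.1%, 48.2% and 55.5% of all genes lower.

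**Figure D2:**
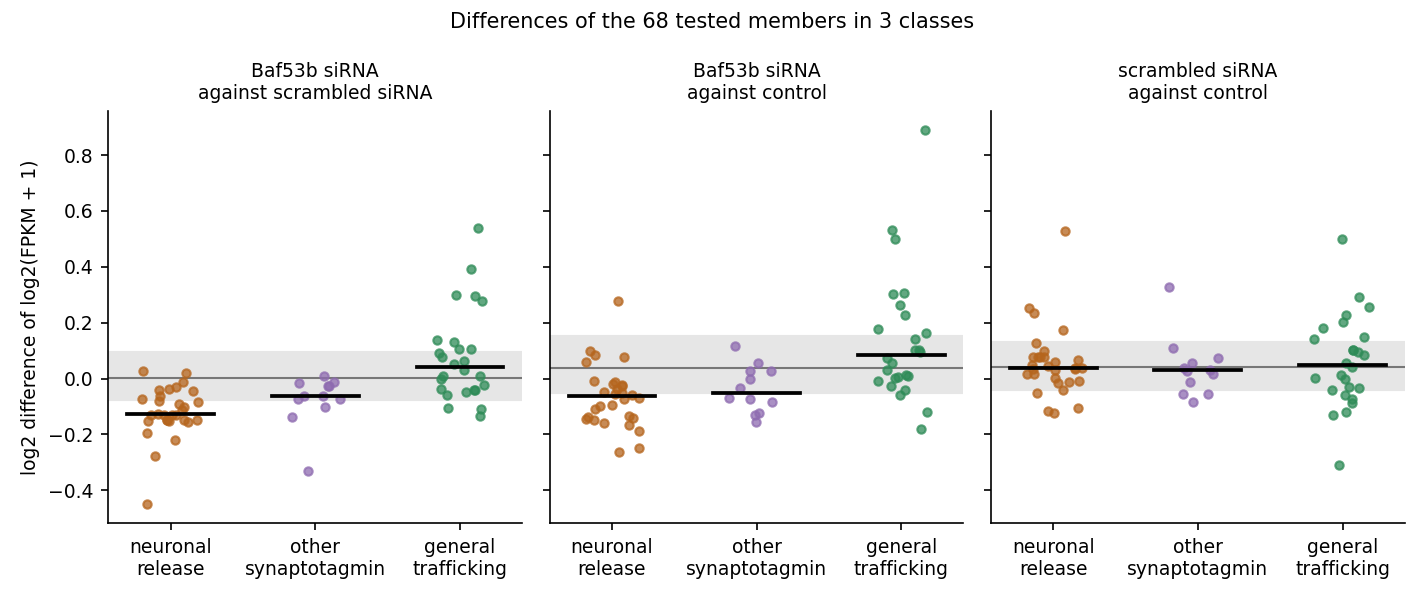
Differences of log2(FPKM + 1) of the 68 tested members of the 3 classes in each comparison, 1 point a gene, with a black bar at the class median; the grey line and band are the median and quartiles of all genes tested. In the left panel the neuronal release median is -0.13 and the general trafficking median 0.04.

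General trafficking paralogs had a median on the other side of 0 from the neuronal genes in the plot of differences. Against scrambled siRNA, 16 of 26 were higher by sign and 10 lower, where 49% of all genes were lower. The trafficking median log2 difference was 0.04 (range -0.14 to 0.54), against 0.0026 over all genes. The median was 0.01 without replicate 1 labelled Baf53b siRNA and 0.0088 without scrambled siRNA replicate 2, when the medians of all genes were -0.03 and -0.06. It was 0.03 without replicate 2 labelled Baf53b siRNA and 0.05 without scrambled siRNA replicate 1, below the medians of all genes there, 0.04 and 0.07. Among genes with a mean of at least 5 FPKM it was 0.0089. In 7 of the 26 (26.9%) both of those labelled Baf53b siRNA lay above both of scrambled siRNA, where 13.1% of all genes did: Stx17, Stx3, Stxbp2, Stxbp3, Stxbp4, Unc13d and Vamp8. Snap29 and Stx2 lay below, where 9% of all genes did. Stxbp4 was separated only narrowly, at 5.21 and 4.73 FPKM in libraries labelled Baf53b siRNA against 4.72 and 4.49 FPKM with scrambled siRNA. The neuronal release median minus the trafficking median was -0.17, while the SD of that difference between the replicates of a group, pooled over the 3 groups, was 0.093. The replicates differed most in the libraries labelled Baf53b siRNA. There the neuronal release genes had a median deviation from the mean of the 6 libraries of 0.03 and -0.17, and the trafficking genes 0.06 in both. Over the further synaptotagmins, 11 of 12 were lower by sign with a median of -0.06. Without replicate 2 labelled Baf53b siRNA 6 of 12 were lower with a median of 0.04, beside 0.04 over all genes. Without scrambled siRNA replicate 1 it was 4 of 12 with a median of 0.02, beside 0.07 over all genes.

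**Figure D3:**
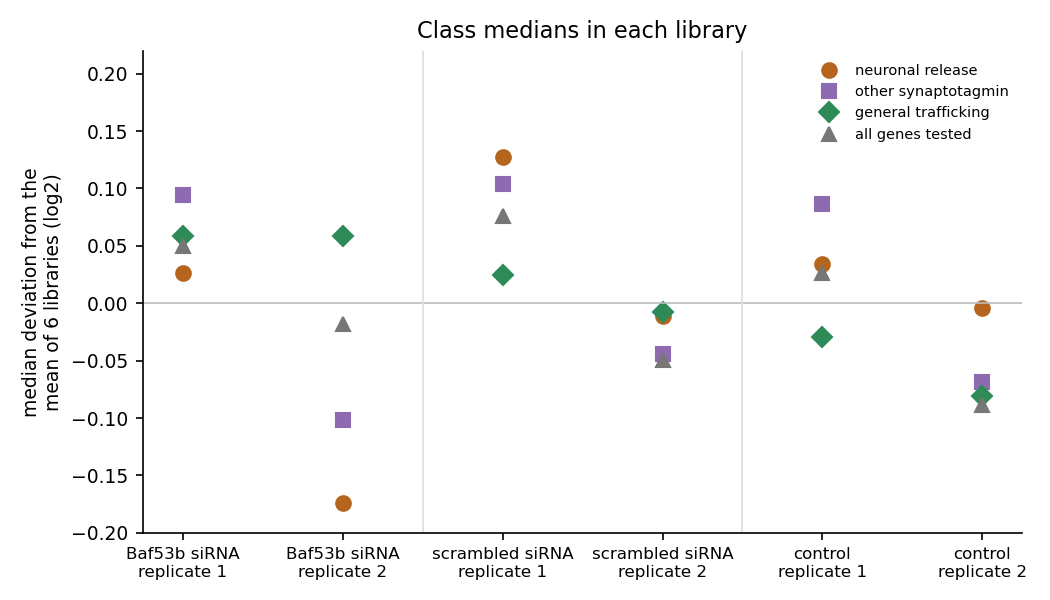
Median deviation of each class from the mean of the 6 libraries, on the log2(FPKM + 1) scale, by library. Neuronal release genes are lowest in Baf53b siRNA replicate 2 at -0.17 and highest in scrambled siRNA replicate 1 at 0.13, while general trafficking genes run between 0.06 and -0.08.

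Summed over the 31 neuronal release genes, the level was 3531 and 3103 FPKM in libraries labelled Baf53b siRNA, 3671 and 3461 FPKM with scrambled siRNA and 3546 and 3436 FPKM in control. As a share of the FPKM of nuclear genes this was 0.690% and 0.634% in libraries labelled Baf53b siRNA, 0.709% and 0.735% in scrambled siRNA and 0.718% and 0.758% in control. Those labelled Baf53b siRNA thus lay below the other 4 on that scale and overlapped with both other groups on the summed scale. The 31 trafficking genes took 0.136% and 0.132% in libraries labelled Baf53b siRNA, 0.135% and 0.136% in scrambled siRNA and 0.135% and 0.135% in control. General neuron markers lay on the same side, with 7 of 7 tested markers lower by sign against scrambled siRNA, where 49% of all genes were. Their median was -0.06, and none was at 0. In 1 of the 7 both libraries labelled Baf53b siRNA lay below both of scrambled siRNA, where 9% of all genes did. The markers summed to 1464 and 1268 FPKM in libraries labelled Baf53b siRNA, 1491 and 1390 FPKM with scrambled siRNA and 1412 and 1442 FPKM in control. Replicate 1 labelled Baf53b siRNA thus lay between the libraries of scrambled siRNA and above both controls, and replicate 2 was the lowest library. The count by sign was not repeated without each library. The part of these markers in the result was not tested, and in bulk tissue fewer cells of a type and less RNA per cell cannot be told apart.

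Against control, the second comparison of the libraries labelled Baf53b siRNA, 0 of 69 members had a limma adjusted p under 0.05, where 1.23% of all genes did. Vamp8 and Stx17 were the 2 members with an unadjusted p under 0.05, both higher, where 4.75% of all genes had such a p on that side and 0.273% on the lower side. Neuronal release genes lay lower by sign in 25 of 30, where 39.3% of all genes did, with a median log2 difference of -0.06 (range -0.26 to 0.28) against 0.04 over all genes. In 6 of the 30 (20%) both libraries lay below both controls, where 7.11% of all genes did: Cplx1, Cplx2, Rab3a, Rab3b, Syn1 and Vamp2. Without replicate 2 labelled Baf53b siRNA, 12 of 30 lay lower and the median was 0.02, when the median of all genes was 0.08 and 34.4% of them lay lower. Without replicate 1 it was 27 with a median of -0.16, against 0.0027 over all genes. Leaving out control replicate 1 gave 19 of 30 and a median of -0.05, against 0.10 over all genes. Leaving out control replicate 2 gave 25 of 30 and a median of -0.13, against -0.01 over all genes. Under the rescaling over nuclear genes, by median ratios and by quantiles, 26, 25 and 27 of 30 lay lower, with medians of -0.14, -0.10 and -0.11, when the medians of all genes were -0.03, -0.0032 and -0.04.

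Trafficking genes were higher by sign against control in 20 of 26 and lower in 6, with a median of 0.08, where 39.3% of all genes were lower. Under the rescaling over nuclear genes, by median ratios and by quantiles the lower count was 13, 11 and 12 of 26 in place of 6, and the median 0.0064, 0.04 and 0.01. The medians of all genes moved too, to -0.03, -0.0032 and -0.04 in place of 0.04, with 58.7%, 50.9% and 59.5% of all genes lower. In 7 of the 26 both of those labelled Baf53b siRNA lay above both controls, where 16.7% of all genes did: Rab3d, Snap23, Stx17, Stx7, Stxbp2, Stxbp3 and Vamp8. Sytl5 and Vamp4 lay below, where 7.11% of all genes did. Because this comparison and the one against scrambled siRNA use the same 2 libraries labelled Baf53b siRNA, their values are not independent. Both of those libraries lay below the other 4 in Cplx1, Rab3b, Syn1 and Vamp2, a pattern held by 3.07% of all genes. They lay above the other 4 in Stx17, Stxbp2, Stxbp3 and Vamp8, a pattern held by 8.03% of all genes.

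Vamp8 (chromosome 6, 72385223 to 72390703, minus strand), a SNARE of late endosomes, lysosomes and secretory granules, differed most of the 69 tested members against control. It stood at 12.5 and 12.2 FPKM in libraries labelled Baf53b siRNA, 8.37 and 10.1 FPKM with scrambled siRNA and 5.47 and 7.03 FPKM in control. The 3 groups did not overlap, and scrambled siRNA lay between the others. Its log2 difference was 0.89 against control (SE 0.17, 95% interval 0.49 to 1.29), a 1.98-fold higher mean FPKM, and it missed the threshold with a limma adjusted p = 0.0791. Blocking on the replicate number put it past the threshold at an adjusted p of 0.0448, while the other alternatives gave adjusted p-values of 0.0754 to 0.560. Against scrambled siRNA the difference was 0.39 (SE 0.17, limma adjusted p = 1), and between scrambled siRNA and control 0.50 (SE 0.17, limma adjusted p = 1).

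Stx17 (chromosome 4, 48124915 to 48186507, plus strand), the syntaxin of autophagosome to lysosome fusion, stood at 8.34 and 8.24 FPKM in libraries labelled Baf53b siRNA, 6.28 and 6.84 FPKM with scrambled siRNA and 5.55 and 5.59 FPKM in control. These groups did not overlap either, and the log2 difference was 0.50 against control (SE 0.14, limma adjusted p = 0.310) and 0.30 against scrambled siRNA (SE 0.14, limma adjusted p = 1). Stxbp3 (chromosome 3, 108793176 to 108840526, minus strand), the Munc18 partner of syntaxin 4, stood at 10.2 and 10.8 FPKM in libraries labelled Baf53b siRNA, 7.75 and 8.97 FPKM with scrambled siRNA and 8.13 and 8.97 FPKM in control. Scrambled siRNA and control overlapped in Stxbp3, and the libraries labelled Baf53b siRNA lay above both groups by log2 differences of 0.29 and 0.26 (SE 0.14 in both, limma adjusted p = 1). Snap23, the paralog of Snap25 in non-neuronal cells, stood at 6.95 and 7.11 FPKM in libraries labelled Baf53b siRNA, 7.11 and 6.84 FPKM with scrambled siRNA and 5.37 and 5.66 FPKM in control. Both siRNA groups lay above control in Snap23, with log2 differences of 0.30 for libraries labelled Baf53b siRNA and 0.29 for scrambled siRNA (SE 0.14 in both, limma adjusted p = 1).

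Stxbp2 (Munc18-2) and Unc13d (Munc13-4) serve granule release in lymphocytes, mast cells and platelets. Stxbp2 stood at 15.0 and 14.0 FPKM in libraries labelled Baf53b siRNA, 13.2 and 10.5 FPKM with scrambled siRNA and 13.4 and 6.95 FPKM in control, and its SE of 0.28 was as large as its log2 difference against scrambled siRNA, 0.28. Unc13d stood at 2.62 and 2.70 FPKM in libraries labelled Baf53b siRNA, 1.29 and 1.77 FPKM with scrambled siRNA and 1.47 and 2.95 FPKM in control. Its log2 difference against scrambled siRNA was the largest of the members, 0.54 (SE 0.25, limma adjusted p = 1), but 1 control library lay above both libraries labelled Baf53b siRNA. The interval of Unc13d corresponded to an estimated 10 to 53 fragments in a library. Stx7, an endosomal syntaxin and the highest of the trafficking syntaxins, stood at 86.1 and 85.2 FPKM in libraries labelled Baf53b siRNA, 88.3 and 83.2 FPKM with scrambled siRNA and 80.1 and 71.3 FPKM in control (log2 difference 0.18 against control, SE 0.13, limma adjusted p = 1). Stx3, the syntaxin of apical membranes and ribbon synapses, stood at 11.4 and 13.5 FPKM in libraries labelled Baf53b siRNA, 11.3 and 11.02 FPKM with scrambled siRNA and 12.2 and 10.2 FPKM in control. Stx11, which works with Stxbp2 in lymphocytes, was at most 0.103 FPKM in any library.

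**Figure D4:**
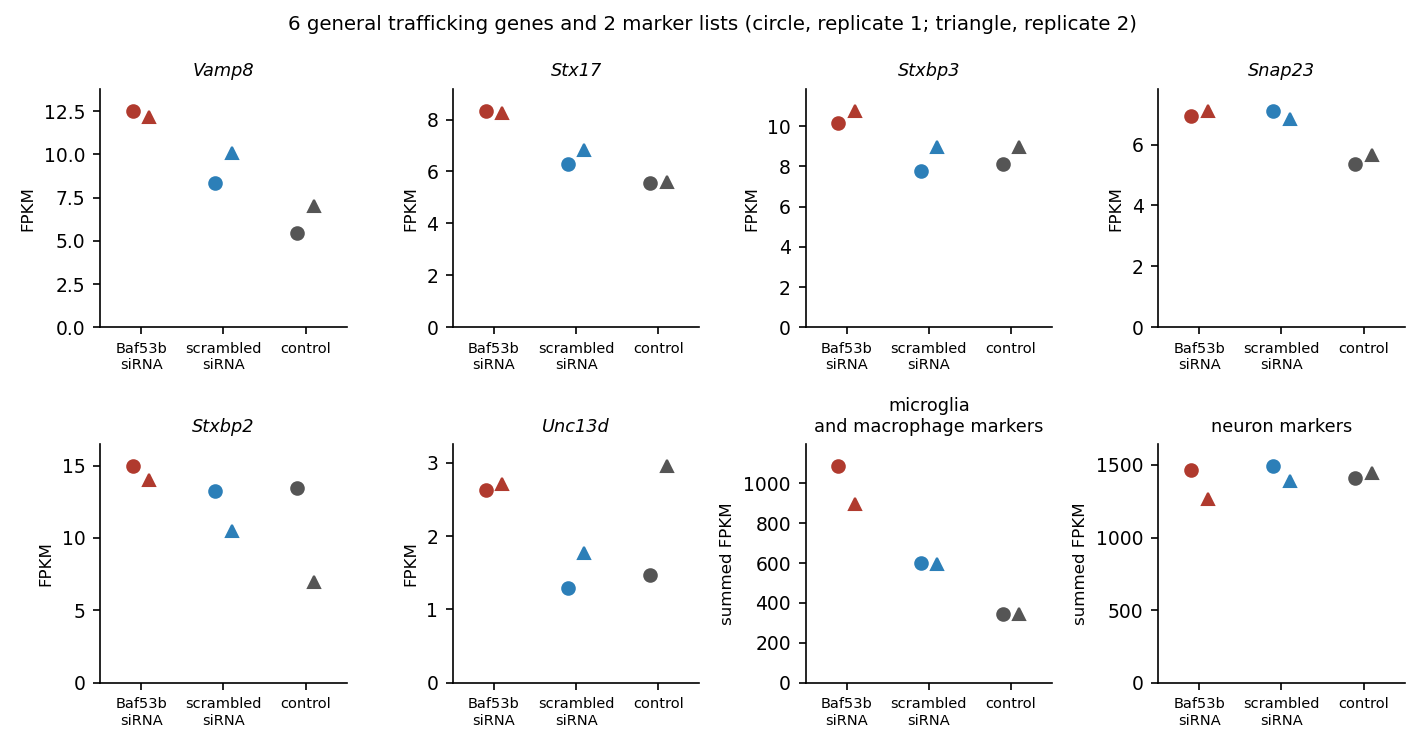
FPKM by library of 6 trafficking genes, and the summed FPKM of 12 microglia and macrophage markers and of the neuron markers, by group (circle, replicate 1; triangle, replicate 2; all axes start at 0). Vamp8 sits at 12.5 and 12.2 FPKM in libraries labelled Baf53b siRNA and at 5.47 and 7.03 FPKM in control, and the microglia sum lies at 1085 and 897 FPKM in libraries labelled Baf53b siRNA and at 345 and 342 FPKM in control.

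The microglia and macrophage markers are drawn beside these genes. Of the 12 markers, 11 had both libraries labelled Baf53b siRNA above both of scrambled siRNA (median log2 difference 0.67, 0 called by limma), where 13.1% of all genes did. Against control 9 of the 12 passed the test (median 1.38), where 1.23% of all genes did. None was at 0 in any library. The 8 lymphocyte markers summed to 11.7 and 8.67 FPKM in libraries labelled Baf53b siRNA, 3.33 and 4.32 FPKM with scrambled siRNA and 1.21 and 1.59 FPKM in control, with Cd3e, Cd3g and Nkg7 listed at 0 in both controls. The 8 astrocyte markers summed to 1137 and 1135 FPKM in libraries labelled Baf53b siRNA, 1021 and 954 FPKM with scrambled siRNA and 849 and 955 FPKM in control. There 1 was called against scrambled siRNA and 2 against control, all higher, where 0.123% and 1.23% of all genes were called. Of the 8, Gfap stood at 169.9 and 178 FPKM in libraries labelled Baf53b siRNA, 45.1 and 47.3 FPKM with scrambled siRNA and 16.9 and 18.3 FPKM in control. The astrocyte list did not move together against scrambled siRNA, where 4 of the 8 lay lower by sign (median log2 difference 0.08). Against control 0 of the 8 lay lower (median 0.14). The 8 endothelial markers summed to 60.6 and 76.6 FPKM in libraries labelled Baf53b siRNA, 60.4 and 58.4 FPKM with scrambled siRNA and 53.2 and 43.2 FPKM in control, with none called. The part of these 4 lists in the levels of Vamp8, Stx17, Stxbp2, Stxbp3, Snap23 and Unc13d was not tested.

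Ratios within a library set each neuronal gene beside a trafficking paralog, free of the scaling between libraries. Snap25 over Snap23 was 119.6 and 103 in libraries labelled Baf53b siRNA, 113 and 123 in scrambled siRNA and 149 and 142 in control. Both siRNA groups lay below control in this ratio, and they overlapped with each other. Rab3a over Rab3d was 84.3 and 88.8 in libraries labelled Baf53b siRNA, 99.5 and 103.7 in scrambled siRNA and 107 and 123 in control, so its 3 groups did not overlap. Unc13a over Unc13d was 15.1 and 11.8 in libraries labelled Baf53b siRNA, 33.2 and 17.6 in scrambled siRNA and 29.1 and 10.7 in control, so it lay below scrambled siRNA and overlapped with control.

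**Figure D5:**
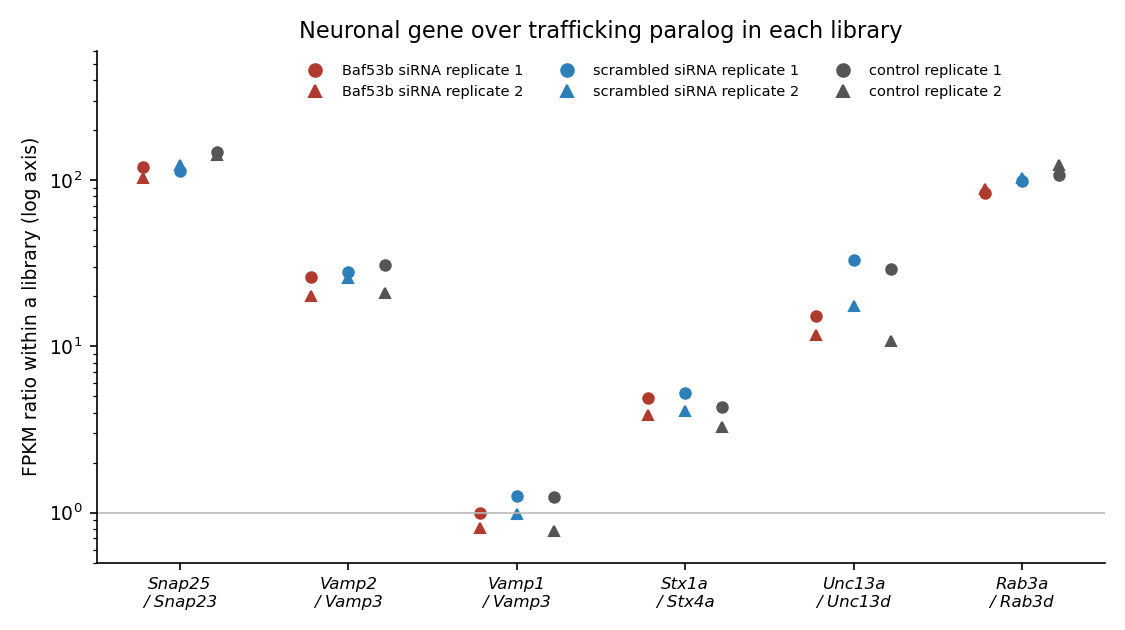
FPKM of a neuronal gene over that of a trafficking paralog within each library, on a log axis, for 6 pairs (colour marks the group, circle replicate 1, triangle replicate 2). Snap25 exceeds Snap23 by 103 to 149 times, while Vamp1 and Vamp3 lie near a ratio of 1.

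The other pairs in the plot of ratios overlapped between libraries labelled Baf53b siRNA and control. Vamp2 over Vamp3 was 26.0 and 20.1 in libraries labelled Baf53b siRNA, 27.8 and 25.8 in scrambled siRNA and 31.1 and 20.9 in control. Vamp1 over Vamp3 was 0.999 and 0.806 in libraries labelled Baf53b siRNA, 1.26 and 0.976 in scrambled siRNA and 1.24 and 0.777 in control. Vamp3 lies inside Camta1 on the same strand, so reads of the longer gene could enter its value. Stx1a over Stx4a was 4.92 and 3.86 in libraries labelled Baf53b siRNA, 5.28 and 4.07 in scrambled siRNA and 4.35 and 3.27 in control.

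The further synaptotagmins include slow calcium sensors and members that bind no calcium. Syt5, of dense-core and some synaptic vesicles, stood at 205 and 155 FPKM in libraries labelled Baf53b siRNA, 190.4 and 173 FPKM with scrambled siRNA and 187 and 191 FPKM in control. Syt11, which binds no calcium, stood at 179.8 and 156 FPKM in libraries labelled Baf53b siRNA, 193 and 167 FPKM with scrambled siRNA and 179 and 173 FPKM in control. These genes came next after Syt1, and their groups overlapped. Syt7, a sensor of asynchronous release and facilitation, stood at 42.3 and 37.0 FPKM in libraries labelled Baf53b siRNA, 43.5 and 36.6 FPKM with scrambled siRNA and 42.4 and 35.6 FPKM in control. Syt3, a postsynaptic and presynaptic sensor of high calcium affinity, stood at 12.03 and 8.88 FPKM in libraries labelled Baf53b siRNA, 14.8 and 11.9 FPKM with scrambled siRNA and 12.7 and 8.44 FPKM in control. Its log2 difference against scrambled siRNA was -0.33 (SE 0.23, limma adjusted p = 1) and its groups overlapped. Syt4 and Syt10 had both libraries labelled Baf53b siRNA below both controls, where 7.11% of all genes did. Syt4 stood at 56.7 and 67.2 FPKM against 67.8 and 70.2 FPKM in control. Syt10 was separated only narrowly, at 1.491 and 1.686 FPKM against 1.975 and 1.692 FPKM in control. Snap91 stood at 107 and 86.7 FPKM in libraries labelled Baf53b siRNA, 119 and 98.0 FPKM with scrambled siRNA and 110.0 and 109 FPKM in control (log2 difference -0.18 against control, SE 0.17, limma adjusted p = 1).

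Scrambled siRNA against control sets a siRNA of shuffled sequence beside mice for which the labels name no treatment. Here too 0 of 69 members had a limma adjusted p under 0.05, as did 0% of all genes, and Vamp8 alone had an unadjusted p under 0.05, where 2.03% of all genes had such a p on the higher side. Neuronal release genes were lower by sign in 8 of 30, where 36.4% of all genes were, with a median log2 difference of 0.04, against 0.04 over all genes too. Under the rescaling over nuclear genes, by median ratios and by quantiles the lower count was 19, 18 and 18, and the median -0.02, -0.01 and -0.01. The medians of all genes moved with them to -0.01, -0.0028 and -0.01, with 54.3%, 51.0% and 53.8% of all genes lower. Without scrambled siRNA replicate 1 the count was 20 and the median -0.04, and without control replicate 2 the count was 13 and the median 0.02, while the median of all genes was -0.02 both times. Without scrambled siRNA replicate 2 the median was 0.10 and without control replicate 1 it was 0.06, against 0.11 and 0.10 over all genes. Both scrambled siRNA libraries lay above both controls in Cplx3, Rims1 and Syt1 of the neuronal release genes and below them in Cplx2 and Rab3b, patterns held by 12.7% and 5.57% of all genes. Trafficking genes were lower by sign in 10 of 26, with a median of 0.05, and the difference of the class medians was -0.01. After Vamp8, the members of smallest unadjusted p on the higher side were Cplx3 at 0.53 (SE 0.23), Snap23 at 0.29, Stx17 at 0.20, Syt3 at 0.33 and Stx7 at 0.18. On the lower side they were Unc13d at -0.31 (SE 0.25), Cplx2 at -0.12, Rab3b at -0.12, Stx6 at -0.13, Sv2c at -0.11 and Vamp3 at -0.12, all log2 differences with a limma adjusted p = 1.

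Other proteins of the release pathway were counted as a further list of 36 genes, such as the active zone scaffolds, the recycling enzymes and the SNARE-disassembling ATPase NSF. None passed in any comparison by limma, with 0 at an unadjusted p under 0.05 as well. Against scrambled siRNA 33 of 36 lay lower by sign with a median log2 difference of -0.10, where 49% of all genes lay lower. Against control 27 did with a median of -0.04, where 39.3% of all genes did. Both libraries labelled Baf53b siRNA lay below both of scrambled siRNA in 8 of the 36 and above in 2, where 9% and 13.1% of all genes did. The list summed to 3585 and 3003 FPKM in libraries labelled Baf53b siRNA, 3816 and 3321 FPKM with scrambled siRNA and 3519 and 3275 FPKM in control. In this sum replicate 1 labelled Baf53b siRNA lay between the libraries of scrambled siRNA and above both controls. Replicate 2 labelled Baf53b siRNA was the lowest library. The counts by sign of this list were not repeated without each library, so how far they rest on that replicate is not given. Rph3a, the Rab3 effector rabphilin, averaged 66.3 FPKM in libraries labelled Baf53b siRNA and 82.5 FPKM with scrambled siRNA (log2 difference -0.31, SE 0.17). The scaffold Bsn (bassoon) averaged 27.2 FPKM in libraries labelled Baf53b siRNA and 31.2 FPKM with scrambled siRNA (log2 difference -0.19, SE 0.13). On the higher side were Sypl, a synaptophysin relative of non-neuronal cells, at 0.16 and the calcium sensor Doc2a at 0.10. Against control the leading genes were Cadps2 at -0.19 and Prrt2 at -0.17 on the lower side, and Sypl at 0.17 and Doc2a at 0.08 on the higher. Between scrambled siRNA and control, 7 of 36 lay lower by sign with a median of 0.04, where 36.4% of all genes lay lower. Rimbp2 at 0.20 and Rph3a at 0.17 led the higher side, and Prrt2 at -0.10 and Snapin at -0.05 the lower.

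Promoter windows from 250 bases before to 50 bases after the gene start (RefSeq, GRCm38.p6) were found for 60 of the 77 members. Both strands were searched for TTCAGCACC, the start of the RE1 element that the repressor REST binds at neuronal genes, and for TGACGTCA, the cAMP response element bound by CREB. The RE1 letters were in 2 of 23 neuronal release promoters, Syn1 and Unc13a, in 0 of 28 trafficking and 0 of 8 further synaptotagmin promoters, and in 0.433% of all 27025 genes with a window. The cAMP response element was in 1 of 23 neuronal release promoters (Syn1), 1 of 28 trafficking promoters (Stxbp3) and 2.03% of all genes. The GC box GGGCGG was in 20 of 23 neuronal release, 17 of 28 trafficking and 6 of 8 further synaptotagmin promoters, and in 38.2% of all genes. TATAAA was in 2 of 23, 2 of 28 and 0 of 8, and in 15.7% of all genes.

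The stretches around the RE1 letters and the cAMP response element of Syn1 and the cAMP response element of Stxbp3 are shown because both of those labelled Baf53b siRNA lay below the other 4 in Syn1 and above them in Stxbp3. Capitals mark the motif, which begins 232 bases before the start for the RE1 letters, 159 for the Syn1 response element and 108 for that of Stxbp3. All are written 5′ to 3′ on the minus strand of GRCm38.p6.
Syn1 RE1 letters, chrX:20921112-20921168, minus strand: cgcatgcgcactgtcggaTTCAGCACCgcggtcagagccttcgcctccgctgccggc
Syn1 cAMP response element, chrX:20921040-20921107, minus strand: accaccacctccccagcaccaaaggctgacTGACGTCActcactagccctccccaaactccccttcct
Stxbp3 cAMP response element, chr3:108840573-108840640, minus strand: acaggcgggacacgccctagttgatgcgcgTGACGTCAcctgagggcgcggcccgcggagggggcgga
Neither gene's difference passed the test, and a part of the response element in either was not tested. A match of letters is a description and was not read as a binding site.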

How the data were processed

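RNA-seq of 6 libraries was analysed from 1 table per library. The authors deposited FPKM per gene with a confidence interval and a status, per the file headers. The submitters' processing notes name mm10, Cufflinks 2.2.1, TopHat2 2.1.1 and bcl2fastq 2.19.1.403, with neither annotation release nor strand setting. Per the labels' protocols, libraries were made from 1 ug of total RNA with a stranded oligo-dT kit and sequenced from both ends. Rows of 48 gene IDs were summed, and 92 spike-in rows and 4 genes with a failed estimate were left out.

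Differences were taken on log2(FPKM + 1), a scale that understates the change of low genes. Genes with a mean of at least 1 FPKM were fitted, without 353 short RNA genes. The fit used all 6 libraries (R 4.3.3, limma 3.58.1, eBayes with its trend option, 3 residual and 3.99 prior degrees of freedom). Two-sided p-values were adjusted over 14664 genes after Benjamini and Hochberg, with a threshold of 0.05. In a simulation of the comparison of Baf53b siRNA with scrambled siRNA (14664 genes, 200 of them changed, 10 datasets), 74.8% of 2-fold and 99.7% of 4-fold changes were recovered, and 6.61% of calls were unchanged genes. The simulated libraries varied independently of each other, and no change below 2-fold was simulated. Recovery of smaller differences, such as those of most members, is thus not known. Fragments per gene were estimated from the deposited interval, whose width was read as 2 standard errors of a count to either side. Anything else that widens an interval lowers the estimate.

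Members with an adjusted p under 0.05 were to be named, with the 6 of smallest unadjusted p per direction in each comparison. Neuronal release genes and 6 paralog pairs are given by level, some members and pairs are not reported here by name but stay in the counts, and the 2 pathway genes of smallest p per direction are named. Other genes named by a lack of overlap were chosen after their values were seen. Members and lists were chosen with earlier results of these data known. Alternatives were the pseudocount, the filter on low values, short RNA genes, 3 scalings, the groups fitted, a replicate block, eBayes without trend, and leaving out each library.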

Additional observations from a re-analysis of the deposited data

How the results depend on the processing

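Precision was limited by 2 libraries a group. The neuronal release median minus the trafficking median was -0.17 (log2) against scrambled siRNA, with an SD between replicates, pooled over the 3 groups, of 0.093. By the estimate from the intervals, members below 1 FPKM rest on few fragments. In each comparison 0 members were called under all alternatives but the replicate block. Libraries share a replicate number without a stated pairing; deviations from the group means correlated over genes at 0.36 against scrambled siRNA, 0.18 against control and 0.39 between scrambled siRNA and control. By an alternative chosen after seeing the data, the sign between libraries of the same number, 27 of 30 neuronal release genes were lower against scrambled siRNA in replicate 1, 24 in replicate 2 and 21 in both, where 55.3%, 44.9% and 26.0% of all genes were. Against control it was 18, 23 and 13, where 45.0%, 40.5% and 15.8% of all genes were. With the replicate block, 1 member was called against control, Vamp8 (log2 difference 0.89, adjusted p = 0.0448 by limma), and the count of all genes called was 13 in place of 18 against scrambled siRNA and 188 in place of 181 against control.

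The neuronal release median minus the trafficking median kept its sign throughout. Leaving out 1 library gave -0.22 to -0.061 against scrambled siRNA, -0.26 to -0.048 against control and -0.09 to -0.0038 between scrambled siRNA and control. The other alternatives gave -0.19 to -0.12, -0.16 to -0.11 and -0.02 to -0.0036 in the same order. The values nearest 0 in the first 2 comparisons came without Baf53b siRNA replicate 2. Several alternatives, such as the replicate block and eBayes without trend, alter no log2 difference, and most members lay far from the threshold. Of 571 values of named members under alternatives, 567 kept direction and side of the threshold, an outcome thus partly fixed in advance. Between scrambled siRNA and control 3 turned. Leaving out 1 library gave -0.65 to 0.028 for Unc13d and -0.33 to 0.092 for Vamp3, each positive without control replicate 2, and for Sv2c 0.0076 without control replicate 1. The cause was not tested. Of all genes, 18 were called against scrambled siRNA, 1 with a pseudocount of 0.1, 8 at a mean FPKM of at least 5 and 0 with no filter on low values (there 1209 higher and 288 lower at an unadjusted p under 0.05).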

Other observations

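A value above that of replicate 2 was found in replicate 1 of all 3 groups for 13 of the 30 tested neuronal release genes, 6 of 12 further synaptotagmins and 8 of 26 trafficking genes, where 37.1% of all genes showed it. The opposite order in all 3 groups was found for 2, 1 and 7 genes of these classes, where 11.4% of all genes showed it. Genes of the mitochondrial chromosome took 19.3% and 22.8% of the FPKM sum in libraries labelled Baf53b siRNA, 15.0% and 26.9% in scrambled siRNA and 19.4% and 29.5% in control, higher in replicate 2 of each group. Their part in this pattern was not tested.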
